A study of Mus musculus with 15 samples.

Results

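The BCL2 family genes of survival and death were followed here as 10 genes chosen by name: the survival genes Bcl2, Bcl2l1, Mcl1, Bcl2a1a, Bcl2a1b and Bcl2a1d, the effector genes Bax and Bak1, and the BH3-only genes Bcl2l11 and Bbc3. They are 10 of the 54838 genes in the deposited count table, all 10 were found in it, and all 10 passed the filter on low counts. RNA came from spleens of 3-month-old wild-type male mice 9 days after injection of sheep red blood cells, an antigen that raises germinal centres (GC). The 15 libraries form 5 groups of 3, lettered A, B and C. There were 3 groups of naive B cells kept for 5 days in a medium made for embryonic stem cells, and activated there with 80 ng/ml mouse IL-4 plus 5 µg/ml anti-CD40 (CD40), with 2 µM CpG oligonucleotide (CpG) or with 25 µg/ml lipopolysaccharide (LPS), with cytokines and new medium supplied on days 0 and 3. The other two groups were sorted GC B cells and sorted naive B cells, taken as uncultured from their labels. All 15 libraries therefore share the immunised wild-type source and a magnetic enrichment of B220-positive cells before the sort. Whether IL-4 was also present with CpG or LPS, which animals the letters stand for and whether animals were pooled is not settled by the labels, so the p-values below measure the spread between libraries, which may be technical.

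BCL2 family proteins decide whether the outer membrane of the mitochondrion is breached. Survival members (BCL2, BCL-XL from Bcl2l1, MCL1 and the A1 proteins from the Bcl2a1 genes) bind and hold back the effectors BAX and BAK, and BH3-only proteins such as BIM (Bcl2l11) and PUMA (Bbc3) occupy the survival proteins and set the effectors free. Resting B cells are known to depend on BCL2, GC B cells are known for little BCL2 and a need for MCL1, and signals through CD40 and Toll-like receptors are known to induce BCL-XL and A1 through NF-kB.

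Library totals ran from 25397624 to 36272197 counts. The B-lineage markers Ms4a1, Cd79a, Cd79b and Pax5 were detected in all groups. Ms4a1 stood at 1091 to 2231 CPM (counts scaled to library size) in GC and naive libraries. In activated libraries it stood at 41.3 to 52.3 CPM in letter B and 236 to 285 CPM in A and C. Cd79a and Pax5 were also lower in every activated library than in any GC or naive library, while Cd79b overlapped. The 5 GC markers summed to between 1705 and 1891 CPM in GC libraries, against 71.4 to 128.8 CPM in naive libraries. The 4 naive follicular markers summed to between 95.04 and 112 CPM in GC libraries, against 4801 to 6734 CPM in naive libraries. T cell markers summed to at most 6.65 CPM and NK cell markers to at most 1.81 CPM in any library. Myeloid markers summed to at most 26.1 CPM in any library. Naive B stood apart: it had 11523 genes with a count, against 13920 in naive A and 18866 in naive C, its erythroid markers summed to 298 CPM against 29.2 and 3.30 CPM, and its neutrophil markers to 42.2 CPM against 4.89 and 0.208 CPM. Isolation-stress genes (Fos, Fosb, Jun, Atf3 and Egr1) summed to between 188 and 244 CPM in GC libraries and between 1487 and 5379 CPM in naive libraries. Their part in the results against naive cells was not tested.

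The sequences that bear on the measurement itself come first. Bcl2a1a, Bcl2a1b and Bcl2a1d are near-identical copies on chromosome 9 (GRCm38), at 88956900 to 88962419 (plus strand), 89199209 to 89207827 (plus strand) and 88723285 to 88731914 (minus strand). Each has a coding sequence of 519 bases. Bcl2a1a and Bcl2a1b differ at 11 of these bases, Bcl2a1a and Bcl2a1d at 7, and Bcl2a1b and Bcl2a1d at 6. Coding bases 1 to 60, from the GENCODE M21 transcripts, hold 6 of the 12 positions at which the 3 genes vary, shown in capitals.
Bcl2a1a: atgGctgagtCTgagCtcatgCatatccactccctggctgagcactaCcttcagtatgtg
Bcl2a1b: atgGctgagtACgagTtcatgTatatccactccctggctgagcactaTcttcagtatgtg
Bcl2a1d: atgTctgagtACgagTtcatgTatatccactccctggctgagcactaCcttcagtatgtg
Of all stretches of 100 bases in each transcript, 43.5% of those in Bcl2a1a, 31.1% in Bcl2a1b and 54.7% in Bcl2a1d also occur in at least 1 of the other copies. The submitters' notes do not say how reads that fit several genes were counted, so the split of reads among the 3 genes is uncertain and their summed level is given beside each. Among other overlaps, Bcl2a1b shares 49.1% of its exon bases with Gm29094 and Bax 12.2% with Gm45808, both on the same strand, and neither of these partners had a count in any library. Bak1 shares 18.2% of its exon bases with Ggnbp1 and Bcl2 6.09% with D630008O14Rik, each on the opposite strand, and use of strand in the counting is not stated.

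The promoters of the 10 genes (RefSeq, GRCm38.p6, 250 bases before to 50 bases after a gene's start, 15 starts in all) were searched on both strands for 5 short patterns. An NF-kB pattern, GGGNNTTTC, was found in 3 of the 15, at Bcl2l1, Mcl1 and Bbc3, and in 4.36% of all 32851 promoters of the same length. A FOXO pattern, GTAAACA, was found in 2, at Bcl2l11 and Bbc3, and in 3.65% of all. A STAT pattern (TTCNNNGAA, 8.30% of all), a BCL6 pattern (TTCCTNGAA, 1.59%, each match of which also fits the STAT letters) and an E2F pattern (TTTGGCGC, 0.514%) were in none of the 15. Shown are 2 promoters of genes that were higher in every activated group, with the matched letters in capitals: at Bcl2l1 the NF-kB pattern on the opposite strand (chr2:152830668-152830967, minus strand) and at Bcl2l11 the FOXO pattern (chr2:128125788-128126087, plus strand).
Bcl2l1: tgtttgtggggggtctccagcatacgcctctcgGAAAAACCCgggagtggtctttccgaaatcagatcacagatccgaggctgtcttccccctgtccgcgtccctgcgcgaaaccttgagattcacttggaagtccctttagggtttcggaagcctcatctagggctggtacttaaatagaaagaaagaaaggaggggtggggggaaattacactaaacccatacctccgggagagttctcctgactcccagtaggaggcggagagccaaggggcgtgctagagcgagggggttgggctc
Bcl2l11: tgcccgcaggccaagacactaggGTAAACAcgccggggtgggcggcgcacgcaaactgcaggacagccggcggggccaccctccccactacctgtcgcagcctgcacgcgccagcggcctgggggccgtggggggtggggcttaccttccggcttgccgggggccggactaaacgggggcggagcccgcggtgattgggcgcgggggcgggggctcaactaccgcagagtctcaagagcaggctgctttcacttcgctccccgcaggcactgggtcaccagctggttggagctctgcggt
The other starts of Bcl2l1 and Bcl2l11 held no match. Mcl1, with an NF-kB match, was lower in every activated group than in naive cells, and the 3 Bcl2a1 genes, with no match, were higher. The matches describe these letters only, and a link to expression was not tested. The Bcl2 promoter held 76.0% G and C, against a median of 52.7% over all promoters. Promoter sequences of the 3 Bcl2a1 genes were identical at 98.0% to 99.2% of their aligned bases.

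GC B cells carried almost no Bcl2 message, more Bcl2l1 and more Bak1 than naive B cells, and the other 7 genes did not pass the test. Of the 10 genes, 2 were higher and 1 was lower, and 4 had groups that did not overlap, as did 43.7% of all genes. Over all 17144 genes tested 17.9% were higher and 16.5% lower, so the share of the 10 that moved was close to that of all genes. The median log2 fold change of the 10 was 0.19, against 0.00 over all genes. Here and below, adjusted p-values are edgeR quasi-likelihood values, Benjamini-Hochberg adjusted over all genes, the threshold is 0.05, CPM are scaled by TMM library sizes, n = 3 libraries a group, and 3 values of a group are those of libraries A, B and C.

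Bcl2 (ENSMUSG00000057329, chromosome 1, 106538178 to 106714274, minus strand), the founding survival gene, stood at 0.70, 2.62 and 1.71 CPM in GC libraries, against 112, 95.5 and 123 CPM in naive libraries. Every GC library lay far below every naive library. The level in GC cells was 65.0-fold lower (log2 fold change -6.02, SE 0.49, adjusted p = 4.38e-07). In bulk RNA, fewer cells with the message and less message per cell cannot be told apart.

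Bcl2l1 (ENSMUSG00000007659, chromosome 2, 152780668 to 152831728, minus strand), which encodes BCL-XL, ran the other way. It stood at 17.0, 22.5 and 18.5 CPM in GC libraries, against 2.58, 0.136 and 6.94 CPM in naive libraries. The groups did not overlap, and the naive libraries differed among themselves, with 94, 4 and 200 counts. The log2 fold change was 2.59 (SE 0.70, adjusted p = 0.0127). It was 2.03 without naive B (0.00017) and 3.86 without naive C, and with GC and naive libraries fitted alone the call was lost (0.103).

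Mcl1 (ENSMUSG00000038612, chromosome 3, 95658788 to 95663176, plus strand), a survival gene with a short-lived protein, stood at 764, 711 and 646 CPM in GC libraries, against 753, 711 and 1010.5 CPM in naive libraries. The groups overlapped (log2 fold change -0.22, SE 0.15, adjusted p = 0.283). The 3 Bcl2a1 genes summed to 33.3 ± 2.79 CPM in GC cells and 24.2 ± 1.65 CPM in naive cells (SD, n = 3 each). Bcl2a1d alone stood at 25.8, 25.9 and 23.3 CPM in GC libraries, against 15.6, 18.2 and 18.7 CPM in naive libraries. These groups did not overlap, but the difference did not pass the test (0.51, SE 0.28, adjusted p = 0.167). Bcl2a1a (-0.62, SE 0.59, adjusted p = 0.447) and Bcl2a1b (0.57, SE 0.54, adjusted p = 0.452) had overlapping groups.

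Of the effectors, Bak1 (ENSMUSG00000057789, chromosome 17, 27019810 to 27029009, minus strand) stood at 134, 119 and 113 CPM in GC libraries, against 38.1, 36.2 and 36.0 CPM in naive libraries. Both groups were tight and far apart (log2 fold change 1.73, SE 0.15, adjusted p = 7.75e-07). Bax (ENSMUSG00000003873, chromosome 7, 45461697 to 45466898, minus strand) stood at 64.6, 73.7 and 57.0 CPM in GC libraries, against 61.9, 127 and 58.7 CPM in naive libraries. Naive B was high for Bax. The log2 fold change was -0.34 (SE 0.24, adjusted p = 0.302), and 0.11 without naive B.

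With all libraries, the BH3-only genes Bcl2l11 and Bbc3 were not called between the sorted populations. Bcl2l11 (ENSMUSG00000027381, chromosome 2, 128126038 to 128162547, plus strand), which encodes BIM, averaged 49.8 ± 12.9 CPM in GC cells and 54.4 ± 1.88 CPM in naive cells (log2 fold change -0.13, SE 0.22, adjusted p = 0.699). Bbc3 (ENSMUSG00000002083, chromosome 7, 16308393 to 16318205, plus strand), which encodes PUMA, stood at 6.94, 10.5 and 8.27 CPM in GC libraries, against 1.13, 9.45 and 3.61 CPM in naive libraries. It overlapped through naive B (0.87, SE 0.53, adjusted p = 0.232) and without that library was called higher in GC cells (1.87, adjusted p = 0.00573). Naive B is the library with the fewest genes and the most erythroid and neutrophil RNA, and the part of these in its Bax and Bbc3 levels was not tested.

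**Figure D1:**
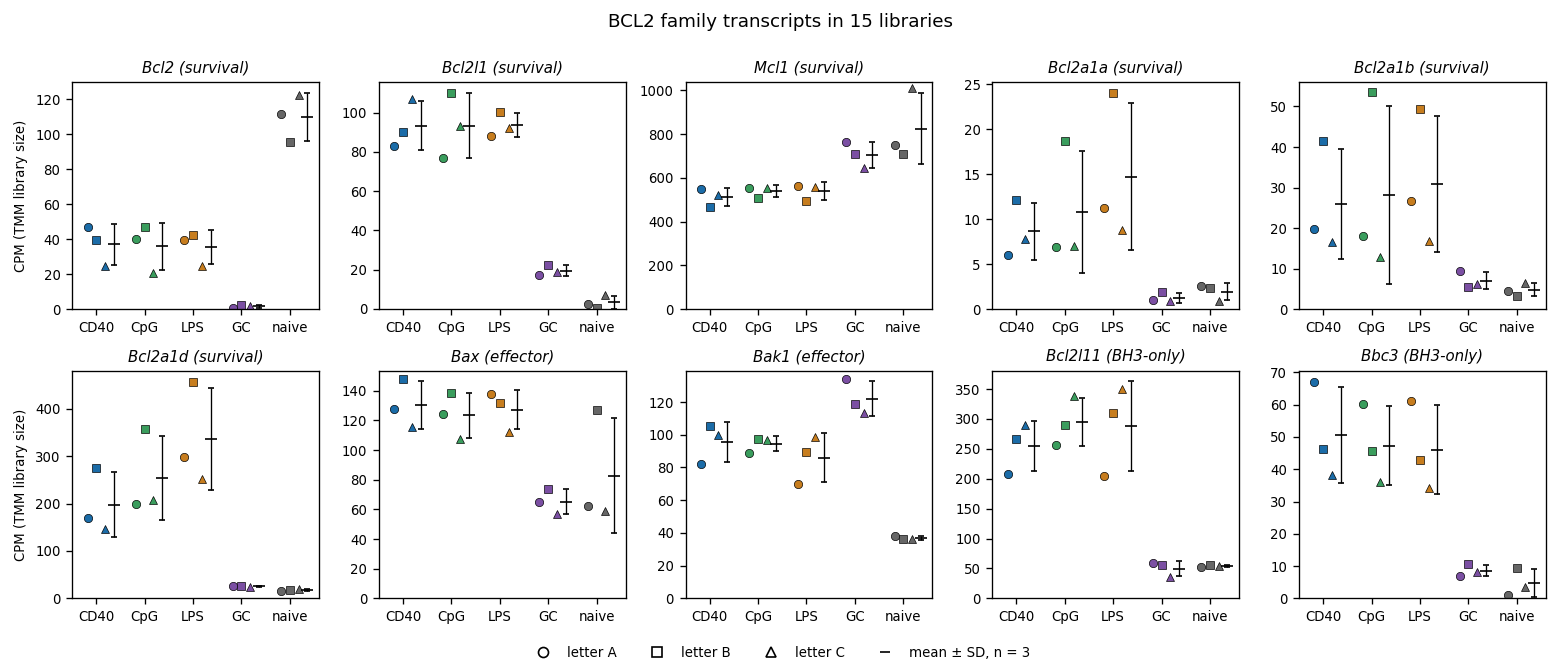
Level of each of the 10 genes in the 15 libraries, in CPM on linear axes, with the groups CD40, CpG, LPS, GC and naive from left to right. Symbols give the letter of each library and the bar beside them the mean ± SD over 3 libraries. Bcl2 is at most 2.62 CPM in GC libraries, and Bcl2l1, Bcl2l11, Bbc3 and Bcl2a1d are higher in all 9 activated libraries than in any GC or naive library.

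Cells activated in culture for 5 days differed from naive cells in most of the family. No culture without a stimulus is among the groups, so the stimulus and the 5 days in culture cannot be told apart. Against naive cells, Bcl2l1, the 3 Bcl2a1 genes, Bak1, Bcl2l11 and Bbc3 were higher and Bcl2 and Mcl1 lower with each of CD40, CpG and LPS. Bax was called higher with CD40 alone, and whether CD40 differs from CpG or LPS in this respect was tested directly, with no call (below). That makes 8 higher and 2 lower in CD40 cells, and 7 higher and 2 lower in each of CpG and LPS cells. Counts and medians of the 10 genes, here and below, take the 3 near-identical Bcl2a1 copies as separate genes. The split of reads among them is uncertain. The shares over all genes were 19.8% higher and 14.3% lower in CD40 cells, 19.7% and 14% in CpG cells, and 19.5% and 14.2% in LPS cells. Groups did not overlap for 9 of the 10 genes in each of the 3 comparisons, and for 41.5%, 43.5% and 43.7% of all genes. The 10 genes had a median log2 fold change of 2.19 (CD40), 2.46 (CpG) and 2.55 (LPS), against 0.17, 0.18 and 0.18 over all genes. The 3 comparisons share the naive libraries.

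Bcl2l1 stood at 82.9, 90.0 and 107 CPM in CD40 libraries, at 76.8, 109.9 and 93.2 CPM in CpG libraries and at 88.1, 100.1 and 92.2 CPM in LPS libraries, against at most 6.94 CPM in a naive library. Every activated library was more than 10 times above every naive library. The log2 fold change was 4.86 with each stimulus (SE 0.77 each, adjusted p = 0.000419, 0.000432 and 0.000424 for the 3 stimuli in turn). Without naive B it was 4.30 in each, and without naive C up to 6.10.

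The Bcl2a1 genes rose together. Their sum stood at 232.5 ± 85.1 CPM in CD40 cells, 293 ± 118 in CpG cells and 382 ± 132 in LPS cells, against 24.2 ± 1.65 CPM in naive cells. Bcl2a1d (ENSMUSG00000099974) made up most of it, 85.5% ± 1.61, 87.8% ± 4.11 and 88.5% ± 2.33 of the counts of the 3 genes in CD40, CpG and LPS cells, against 72.3% ± 3.89 in naive cells. Bcl2a1d stood at 170.5, 276 and 147 CPM in CD40 libraries, at 199, 358 and 207 CPM in CpG libraries and at 298, 457 and 252 CPM in LPS libraries, against at most 18.7 CPM in a naive library. Its log2 fold changes were 3.50, 3.86 and 4.26 (SE 0.30, 0.31 and 0.31, adjusted p = 8.41e-07, 4.28e-07 and 1.86e-07). Bcl2a1b (ENSMUSG00000089929) changed by 2.44, 2.57 and 2.703 (adjusted p = 0.00398, 0.00301 and 0.00212). Bcl2a1a (ENSMUSG00000102037) changed by 2.15, 2.48 and 2.91 (adjusted p = 0.0124, 0.00578 and 0.0021). Its call in CD40 cells was lost without CD40 B (0.0518), and without all activated libraries of letter B its calls in CD40 and CpG cells were lost (0.0648 and 0.0644). Fitted with the naive libraries alone, the Bcl2a1a calls in CD40 and CpG cells were lost as well (0.0842 and 0.056).

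Bcl2 and Mcl1 moved down. Bcl2 stood at 47.0, 39.5 and 24.5 CPM in CD40 libraries, at 40.0, 47.1 and 20.7 CPM in CpG libraries and at 39.7, 42.4 and 24.5 CPM in LPS libraries, against 112, 95.5 and 123 CPM in naive libraries. All activated libraries were below all naive libraries, and the 3 lettered C were the lowest. The log2 fold changes were -1.57, -1.61 and -1.63 (SE 0.40 each, adjusted p = 0.0071, 0.00612 and 0.00567), a 2.97-, 3.06- and 3.09-fold lower level. Mcl1 averaged 513 ± 41.4 CPM in CD40 cells, 539.9 ± 25.9 in CpG cells and 539.9 ± 40.5 in LPS cells, against 825 ± 162 CPM in naive cells (-0.69, -0.61 and -0.61, SE 0.15 each, adjusted p = 0.00309, 0.00659 and 0.00648). Fitted with the naive libraries alone, each group's Mcl1 call was lost (0.0586, 0.0718 and 0.0713).

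Death genes rose beside the survival genes. Bcl2l11 stood at 208, 267 and 289.7 CPM in CD40 libraries, at 257, 289 and 338 CPM in CpG libraries and at 205, 309 and 350.3 CPM in LPS libraries, against 52.7, 56.4 and 54.1 CPM in naive libraries (log2 fold changes 2.23, 2.44 and 2.40, SE 0.23 each, adjusted p = 4.67e-06, 2.21e-06 and 2.4e-06). The groups lay far apart. Bbc3 stood at 67.0, 46.3 and 38.1 CPM in CD40 libraries, at 60.2, 45.6 and 36.2 CPM in CpG libraries and at 61.1, 42.8 and 34.1 CPM in LPS libraries, against 1.13, 9.45 and 3.61 CPM in naive libraries (3.42, 3.33 and 3.29, SE 0.57 each, adjusted p = 0.000464, 0.000571 and 0.000602). Bak1 averaged 95.8 ± 12.2, 94.4 ± 4.58 and 86.1 ± 14.9 CPM, against 36.8 ± 1.13 CPM (1.38, 1.36 and 1.23, SE 0.15 each, adjusted p = 7.85e-06, 9.02e-06 and 2.27e-05). These 3 genes were higher in 9 of 9 activated libraries than in any naive library.

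Bax sat at the threshold, and naive B stood high for it. It stood at 128, 148 and 115 CPM in CD40 libraries, at 124, 138 and 108 CPM in CpG libraries and at 138, 132 and 112 CPM in LPS libraries, against 61.9, 127 and 58.7 CPM in naive libraries. With all libraries the log2 fold changes were 0.66, 0.58 and 0.62 (SE 0.24 each, adjusted p = 0.0499, 0.0828 and 0.0625). The CD40 call was lost in 9 of 14 alternatives, among them without CD40 A (0.0723), CD40 B (0.125), naive A (0.169) or naive C (0.125). Without naive B they were 1.11, 1.04 and 1.08 (adjusted p = 9.74e-05, 0.000188 and 0.000131).

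**Figure D2:**
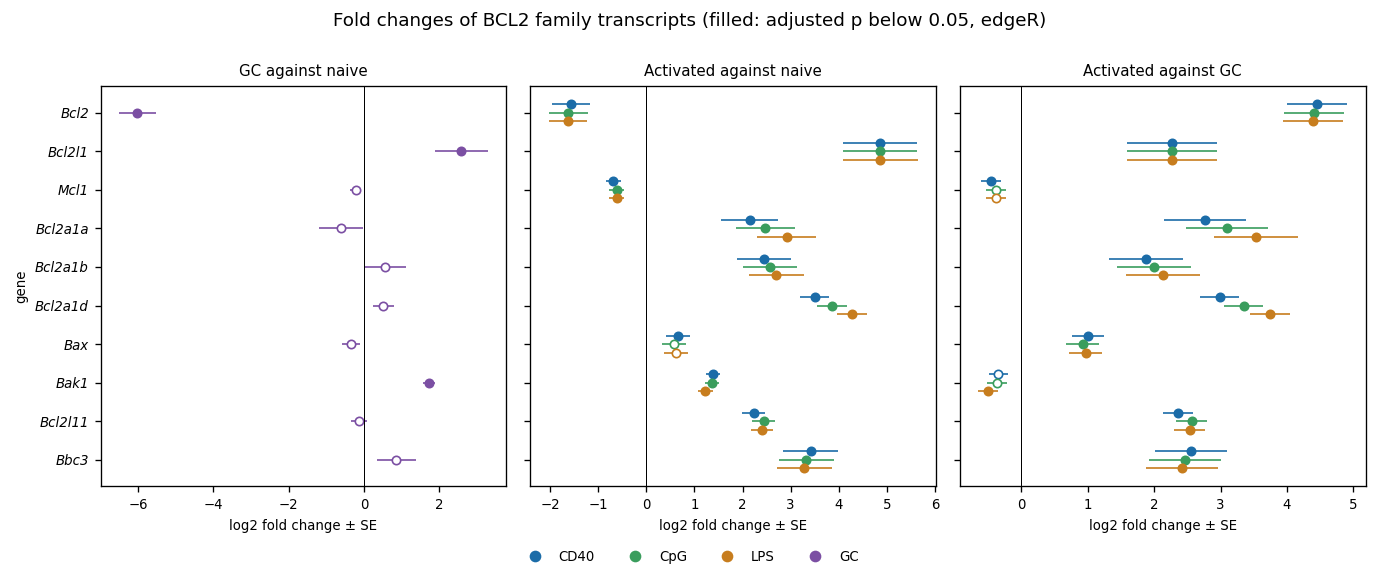
Log2 fold change with its SE for each gene, for GC against naive cells (left), activated against naive cells (middle) and activated against GC cells (right), by edgeR on 15 libraries. Filled points passed an adjusted p of 0.05. The Bcl2 point lies at -6.02 for GC against naive cells and at 4.39 to 4.45 for activated against GC cells, while Bcl2l1, Bcl2l11 and Bbc3 are to the right of 0 in both panels of activated cells.

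Set against GC cells, the activated cells held more of 8 of the 10 genes with every stimulus. Those 8 were Bcl2, Bcl2l1, the 3 Bcl2a1 genes, Bax, Bcl2l11 and Bbc3. Mcl1 was lower with CD40 and Bak1 lower with LPS. All 10 genes had groups that did not overlap in each comparison, called or not, as did 52.7%, 55.1% and 54.6% of all genes. The shares over all genes were 15.9% higher and 12.4% lower in CD40 cells, 16.4% and 12.6% in CpG cells, and 15.8% and 12.2% in LPS cells. Without CpG B, 5 of the 8 calls in CpG cells were left, those of Bcl2l1, Bcl2a1b and Bax being lost. The 3 comparisons share the GC libraries.

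Bcl2 was 21.9-, 21.2- and 21.01-fold higher in CD40, CpG and LPS cells than in GC cells (log2 fold changes 4.45, 4.41 and 4.39, SE 0.46 each, adjusted p = 6.33e-06, 6.52e-06 and 6.72e-06). The lowest activated library held 20.7 CPM and the highest GC library 2.62 CPM. So Bcl2 was lowest in GC cells, intermediate in activated cells and highest in naive cells, with no overlap between these levels.

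Bcl2l1 was 4.82-, 4.82- and 4.83-fold higher than in GC cells (2.27 each, SE 0.68 each, adjusted p = 0.0248, 0.0246 and 0.025). The call was lost in 10 of 14 alternatives with CD40, 9 with CpG and 10 with LPS. It was lost without any 1 of the GC, CD40 or LPS libraries and without CpG B or CpG C (adjusted p of up to 0.0965). The lowest activated library nonetheless held 76.8 CPM and the highest GC library 22.5 CPM. In each comparison the Bcl2l1 call was kept when the activated and GC libraries were fitted alone. The fit reported shares its spread over all groups, and the naive libraries held 94, 4 and 200 counts of Bcl2l1. Their part in the lost calls was not tested. Bcl2a1d was higher by 2.99, 3.35 and 3.75 (SE 0.29, 0.30 and 0.30, adjusted p = 3.64e-06, 1.36e-06 and 5.57e-07). Bcl2a1a was higher by 2.77, 3.10 and 3.54 (0.00344, 0.00168 and 0.000704) and Bcl2a1b by 1.88, 2.00 and 2.14 (0.0193, 0.014 and 0.00992). The Bcl2a1b call was lost without CD40 B (0.115), CpG B (0.132) or LPS B (0.0627), the libraries in which it was highest, without GC B in all 3 comparisons (0.087, 0.0676 and 0.0542), and without GC C in CD40 and CpG cells (0.0802 and 0.0627).

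Bcl2l11 was 5.12-, 5.92- and 5.79-fold higher than in GC cells (2.36, 2.57 and 2.53, SE 0.23 each, adjusted p = 3.38e-06, 1.56e-06 and 1.73e-06). Bbc3 was higher by 2.56, 2.46 and 2.42 (0.00321, 0.00398 and 0.00451). Bax was about 2-fold higher, by 1.00, 0.92 and 0.97 (SE 0.25 each, adjusted p = 0.00667, 0.011 and 0.00843). Without GC C the Bax calls with CpG and LPS were lost (0.0671 and 0.0567), as was that with CpG without CpG B (0.0576).

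Mcl1 and Bak1 were the pair that stood lower after activation than in GC cells. Mcl1 changed by -0.46, -0.39 and -0.39 on the log2 scale (SE 0.15 each, adjusted p = 0.0341, 0.0708 and 0.072). Bak1 changed by -0.35, -0.37 and -0.50 (SE 0.15 each, adjusted p = 0.0916, 0.0755 and 0.0193). These calls sat near the threshold. The Mcl1 call with CD40 was lost without CD40 B (0.069), GC A (0.0772) or GC B (0.0539), and the Bak1 call with LPS without LPS A (0.0835) or GC A (0.0748). Without GC C, Mcl1 was called with CpG and LPS too (0.048 and 0.0457).

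Per-length levels, in RPKM (CPM per kilobase of exon), allow genes to be set beside each other within a group. These values and ratios are descriptions with no test. In naive cells Mcl1 led the survival genes at 241 ± 47.5 RPKM, followed by Bcl2a1d at 20.3 ± 1.92 and Bcl2 at 12.01 ± 1.49, with Bcl2a1b at 5.82 ± 1.96, Bcl2a1a at 2.38 ± 1.14 and Bcl2l1 at 0.702 ± 0.751. Spreads of neighbouring genes met only between Bcl2a1a and Bcl2l1. In GC cells Mcl1 stood at 207 ± 17.3 RPKM, Bcl2a1d at 29.0 ± 1.70, Bcl2a1b at 8.63 ± 2.51, Bcl2l1 at 4.22 ± 0.623, Bcl2a1a at 1.54 ± 0.687 and Bcl2 last at 0.183 ± 0.105. In activated cells Bcl2a1d led, at 229 ± 79.5, 295 ± 104 and 389 ± 125 RPKM in CD40, CpG and LPS cells, ahead of Mcl1 at 149.99 ± 12.1, 158 ± 7.59 and 158 ± 11.8. The lowest Bcl2a1d level of an activated library, 171 RPKM, lay above the highest Mcl1 level, 165 RPKM, though the split of reads among the Bcl2a1 copies is uncertain.

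The 3 Bcl2a1 genes thus made up 59.6% ± 9.55, 63.8% ± 8.69 and 69.8% ± 7.76 of the summed survival RPKM in CD40, CpG and LPS cells. The same share was 15.6% ± 0.14 in GC cells and 10.2% ± 1.19 in naive cells. Mcl1 made up 34.7% ± 8.42, 31.5% ± 8.34 and 26.3% ± 7.20 of it in the same order, against 82.6% ± 0.21 in GC cells and 85.3% ± 1.21 in naive cells. Bcl2 reached 4.29% ± 0.39 in naive cells and 0.0745% ± 0.043 in GC cells. No activated library had a Bcl2a1 share under 52.9% and no GC or naive library one over 15.8%. How reads that fit more than 1 copy were counted is not stated, and the share could be higher or lower with another treatment of them.

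Summed survival transcripts stood at 446 ± 88.4, 525 ± 135 and 627 ± 146 RPKM in CD40, CpG and LPS cells, at 250.3 ± 20.4 in GC cells and at 282 ± 51.3 in naive cells. The 2 BH3-only genes together stood at 55.5 ± 1.78, 59.0 ± 1.42 and 57.6 ± 2.88 RPKM in activated cells, at 10.2 ± 1.81 in GC cells and at 9.00 ± 2.24 in naive cells. The ratio of these sums was 8.04 ± 1.64, 8.93 ± 2.52 and 10.9 ± 2.46 in activated cells, against 24.8 ± 3.23 in GC cells and 32.8 ± 10.03 in naive cells, so it was lower in each of the 9 activated libraries (7.02 to 13.5) than in any GC library (21.3 to 27.7) or naive library (21.5 to 40.4). With the length of the longest transcript in place of all exons it ran from 5.07 to 9.51 in activated libraries, from 15.3 to 20.2 in GC libraries and from 15.2 to 27.2 in naive libraries. The ratio leaves out other BH3-only genes, so this order of groups holds for Bcl2l11 and Bbc3 only. Bid stood at 43.0 to 44.9 RPKM in GC, 8.63 to 18.1 in activated and 15.2 to 18.7 in naive libraries. Bad stood at 13.1 to 17.0, 6.19 to 8.99 and 3.89 to 9.52 RPKM in the same order. Pmaip1 and Bmf overlapped between these groups. Among effectors, Bax over Bak1 was 2.10 ± 0.31, 2.00 ± 0.26 and 2.33 ± 0.65 in activated cells, 0.817 ± 0.11 in GC cells and 3.45 ± 1.66 in naive cells, where naive B stood at 5.36 and the other two at 2.49. The ratio was lower in the GC libraries (0.737 to 0.946) than in any other library. Which of the genes is the higher in GC cells depends on the length used, since with the longest transcript Bax stood at 58.8, 67.0 and 51.8 RPKM and Bak1 at 56.1, 49.8 and 47.5 RPKM. The Bcl2l1 level over that of Bcl2 was 29.1 ± 16.9 in GC cells, between 3.52 and 8.99 in activated libraries and at most 0.113 in naive libraries.

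**Figure D3:**
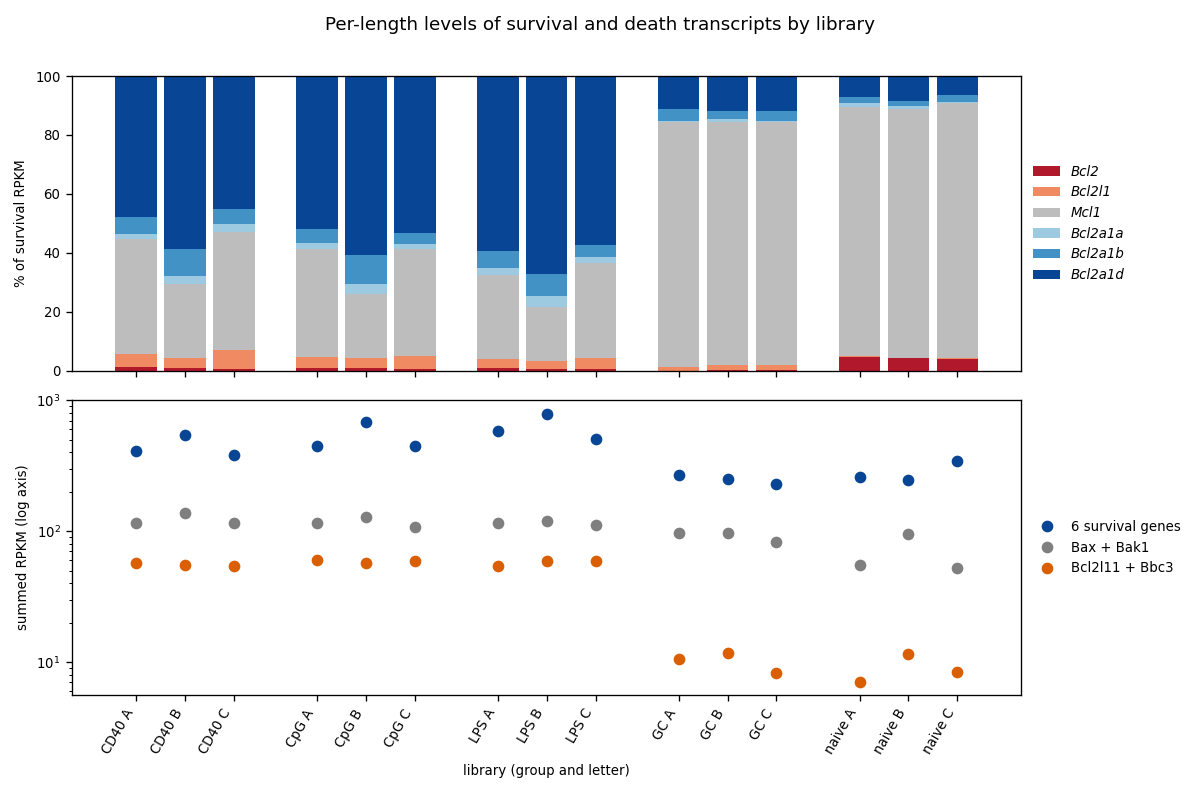
Upper panel, percent of the summed survival RPKM taken by each of 6 survival genes in every library. Lower panel, summed RPKM (log axis) of the survival genes, of Bax and Bak1, and of Bcl2l11 and Bbc3. The Bcl2a1 genes fill 52.9% to 78.4% of the bars of activated libraries, against 15.5% to 15.8% in GC and 8.97% to 11.3% in naive libraries, while Mcl1 fills most of the GC and naive bars.

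Between stimuli, no gene of the 10 passed the test. None of the 17144 genes tested did either, so 0% were called in each of CD40 against CpG, CD40 against LPS and CpG against LPS. At an unadjusted p under 0.05, 0, 1 and 0 of the 10 genes differed in these comparisons, the 1 being Bcl2a1d with CD40 against LPS (log2 fold change -0.76, SE 0.27). DESeq2 called 0 of the 10 as well, and 1 of all genes in CpG against LPS. Among the activated groups, libraries of a letter deviated together. The comparisons were therefore repeated over the 9 activated libraries with letter as a blocking factor, and 0.172%, 0.28% and 0.286% of 15727 genes were then called.

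Bcl2a1d was the only gene of the 10 called there, in all 3 comparisons. With letter blocked, its log2 fold change was -0.36 for CD40 against CpG (SE 0.06, adjusted p = 0.00372), -0.77 for CD40 against LPS (SE 0.06, adjusted p = 2.31e-08) and -0.41 for CpG against LPS (SE 0.06, adjusted p = 0.000728). Within each letter it was lowest with CD40 and highest with LPS. The levels were 170.5, 199 and 298 CPM in A for CD40, CpG and LPS in turn, 276, 358 and 457 CPM in B and 147, 207 and 252 CPM in C. Bcl2a1a (-0.69 for CD40 against LPS, SE 0.19, adjusted p = 0.158) and Bcl2a1b (-0.25, SE 0.13, adjusted p = 0.613) were not called. Whether the groups also differed in IL-4 is not stated, so the stimulus and IL-4 cannot be told apart.

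The letter set the activated libraries apart for most of the family. With 3 libraries a letter, 7 of the 10 genes were called in A against B (2 higher, 5 lower), 7 in A against C (4 higher, 3 lower) and 6 in B against C (5 higher, 1 lower), while 29.1%, 21.5% and 33.1% of 15727 genes were called in either direction. Groups did not overlap for 7 genes in each comparison, and for 44.5%, 34.3% and 44.8% of all genes. Libraries of a letter may share animals or a culture, so these p-values may be too small. The plasma cell markers (Sdc1, Prdm1, Xbp1 and Jchain) also differed by letter. They summed to between 1363 and 1489 CPM in A, 847 and 885 CPM in B and 2956 and 4460 CPM in C, and their part in the letter differences was not tested. Nor was that of the myeloid markers, which summed to between 21.4 and 26.1 CPM in A, 3.33 and 5.76 CPM in B and 4.96 and 6.25 CPM in C. Of these markers, Adgre1 made up most in A, at 19.2, 23.7 and 21.2 CPM in CD40, CpG and LPS libraries. Itgam stood there at 2.11, 2.38 and 1.52 CPM, Lyz2 and Cd14 at no more than 0.330 and 0.066 CPM, and Csf1r at 0. The naive follicular markers summed to between 1223 and 1306 CPM in A, 540.5 and 579 CPM in B and 402 and 427 CPM in C.

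Bcl2 was lower in letter C, at 42.3 ± 4.12 CPM in A, 43.0 ± 3.79 CPM in B and 23.2 ± 2.19 CPM in C (SD, n = 3 each). The log2 fold change was 0.86 for A against C (SE 0.11, adjusted p = 1.97e-06) and 0.89 for B against C (SE 0.11, adjusted p = 8.15e-07), and A and B overlapped (adjusted p = 0.912). The Bcl2a1 genes were highest in letter B. Their sum averaged 252 ± 74.3 CPM in A, 430.1 ± 101 CPM in B and 225 ± 53.1 CPM in C. Bcl2a1b changed by -1.16 for A against B and 1.64 for B against C (adjusted p = 9.74e-07 and 4.6e-09), and Bcl2a1a by -1.18 and 1.21 (0.000697 and 0.000465). Bcl2a1d was not called between letters (0.159 for A against B and 0.093 for B against C) in the fit reported. It was called with the stimulus in the model (9.44e-10 and 3.69e-11) and with the LPS-titled libraries left out (0.0263 and 0.0172), and DESeq2 called it in B against C (0.0264).

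Bcl2l11 was lowest and Bbc3 highest in letter A. Bcl2l11 averaged 223 ± 29.0 CPM in A, 289 ± 21.4 CPM in B and 326 ± 32.0 CPM in C, with -0.37 for A against B (SE 0.09, adjusted p = 0.0025) and -0.55 for A against C (SE 0.09, adjusted p = 6.71e-05). B and C overlapped and were not called (adjusted p = 0.124), though the level was higher in C than in B with each stimulus, and C was called higher than B with a stimulus term (0.0429) or with no filter on low counts (0.0469). Bbc3 averaged 62.8 ± 3.69 CPM in A, 44.9 ± 1.85 CPM in B and 36.1 ± 2.02 CPM in C, with 0.48 for A against B (adjusted p = 0.000202), 0.80 for A against C (2.95e-07) and 0.31 for B against C (0.0103). Their summed RPKM did not follow the letter, at 57.4 ± 3.04 in A, 57.1 ± 1.87 in B and 57.6 ± 3.11 in C.

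Smaller letter differences were called for the remaining genes. Bcl2l1 was lower in A than in B (-0.28, adjusted p = 0.0166) and C (-0.24, 0.0463), and so was Bak1 (-0.28 and -0.30, 0.0151 and 0.0123). Bax was higher in A than in C (0.21, 0.03) and in B than in C (0.31, 0.00106). Mcl1 was higher in A than in B (0.18, 0.0182) and lower in B than in C (-0.16, 0.0399). Several of these calls rest on all 9 libraries. Without the CD40-titled, the CpG-titled or the LPS-titled libraries Mcl1 was not called in A against B (0.129, 0.0576 and 0.0951) or in B against C (0.137, 0.112 and 0.174), nor Bax in A against C (0.0683, 0.13 and 0.192). Bak1 was lost in both comparisons without the CD40-titled libraries (0.139 and 0.067) or the LPS-titled ones (0.0655 and 0.146). Bcl2l1 was lost in both without the CpG-titled libraries (0.379 and 0.186) and in A against C without the CD40-titled ones (0.288). Without the LPS-titled libraries the calls of Bcl2l11 in A against B (0.0688) and Bbc3 in B against C (0.0555) were lost too, the second also without the CpG-titled ones (0.0839).

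**Figure D4:**
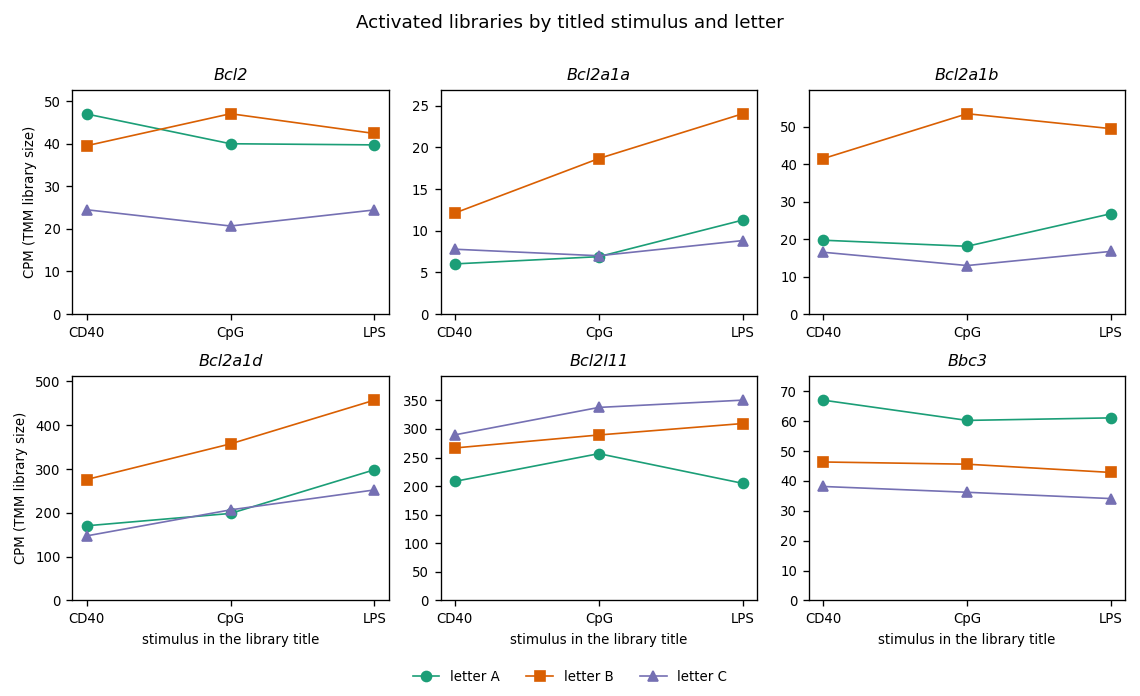
CPM of 6 genes in the 9 activated libraries, by the stimulus in the library title (horizontal axis) and letter (lines joining the 3 libraries of a letter). Bcl2 is lowest in letter C, the Bcl2a1 genes are highest in letter B, Bcl2l11 is lowest and Bbc3 highest in letter A for each stimulus, and Bcl2a1d is lowest with CD40 and highest with LPS within each letter.

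The rest of the death machinery was counted from lists of other BCL2 family genes, of caspases and apoptosome parts, and of inhibitors of apoptosis (IAPs) with their antagonists. Of 16 other BCL2 family genes 12 could be tested. In GC against naive cells 4 were higher and 1 lower, and in each activated group against naive cells 5 were higher and 0 lower. Of 10 caspase and apoptosome genes 4 were higher and 1 lower in each of these 4 comparisons. Of 6 IAP genes 0 were higher and 1 was lower in GC cells, and 1 was higher and 0 lower in each activated group. Beside these counts stand the shares over all genes given above, 17.9% higher and 16.5% lower in GC cells, and 19.5% to 19.8% higher and 14% to 14.3% lower in activated cells. Nothing particular to the lists is read from counts this small. The genes named from these lists are among the 12 with the largest change among those called and changed at least 2-fold. The median log2 fold change in GC against naive cells was 0.56, 0.51 and -0.28 over the 3 lists, against 0.00 over all genes. With CD40 against naive cells it was 0.53, 0.65 and -0.04, against 0.17 over all genes.

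GC cells held more of the BH3-only genes Bid and Bad. Bid stood at 159, 153 and 157 CPM in GC libraries, against 54.1, 59.0 and 66.5 CPM in naive libraries (log2 fold change 1.38, adjusted p = 0.000877). Activated cells were not called against naive cells for Bid and were lower than GC cells, with log2 fold changes of -1.75 (CD40), -1.82 (CpG) and -1.61 (LPS) (adjusted p = 0.000191, 0.000135 and 0.000356). Bad averaged 39.1 ± 4.97 CPM in GC cells and 16.0 ± 7.47 CPM in naive cells (1.29, adjusted p = 0.00269). Bik, another BH3-only gene, had no count in a naive library and 166 counts in the GC libraries, and was at least 53.2-fold higher in GC cells, taking 3 counts over the naive group as the floor. Its counts in activated cells went with the letter, with 53, 14 and 0 in CD40 libraries, 47, 24 and 4 in CpG libraries and 26, 10 and 6 in LPS libraries, so no fold is given for them. Bcl2l15, a family member with little known of its role, averaged 0.710 ± 0.362 CPM in GC cells and had 2 counts in all naive libraries together.

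The survival gene Bcl2l2, which encodes BCL-W, moved in opposite directions in GC and activated cells. It stood at 3.12, 2.89 and 2.11 CPM in GC libraries, against 9.01, 8.77 and 13.9 CPM in naive libraries (-1.96, adjusted p = 8.55e-06). In activated cells it averaged 42.0 ± 3.69, 44.6 ± 3.81 and 42.1 ± 4.12 CPM in CD40, CpG and LPS cells (1.99, 2.08 and 2.00, adjusted p = 7.71e-06, 5.51e-06 and 7.47e-06). Bnip3 and Bnip3l, BH3-like genes of mitochondrial turnover, were higher after activation, Bnip3 by 3.32, 3.54 and 3.53 (adjusted p = 0.000122, 7.65e-05 and 7.62e-05) and Bnip3l by 1.48, 1.66 and 1.61 (0.0071, 0.00362 and 0.00424), with no call in GC cells. Bnip3 was highest in letter B, at 80.5, 94.8 and 97.3 CPM for the 3 stimuli, against at most 44.7 CPM in the activated libraries of A and C.

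Downstream of the mitochondrion, Casp6, an executioner caspase gene, was higher by 1.06 in GC cells (0.0258) and by 3.07, 3.40 and 3.25 in activated cells (1.92e-05, 8.86e-06 and 1.24e-05). Cycs, which encodes cytochrome c, was higher by 1.71 in GC cells (2.12e-06) and by 1.27, 1.29 and 1.32 in activated cells (3.77e-05, 3.46e-05 and 2.71e-05).

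The IAP genes Birc2 and Birc3, which encode the paired ubiquitin ligases cIAP1 and cIAP2, differed in where they moved. Birc2 averaged 487 ± 170, 493 ± 135 and 542 ± 173 CPM in CD40, CpG and LPS cells, against 104 ± 10.8 CPM in naive cells (2.23, 2.24 and 2.38, adjusted p = 2.72e-05, 2.61e-05 and 1.56e-05), and was not called in GC cells (0.383). Birc3 averaged 113 ± 8.85 CPM in GC cells, against 359 ± 64.5 CPM in naive cells (-1.67, adjusted p = 6.84e-05), and was not called in activated against naive cells (0.2, 0.188 and 0.351). Among the listed genes, and picked after its values were seen, Bmf, a BH3-only gene, had 0 counts in naive B against 542 and 1027 in naive A and C.

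**Figure D5:**
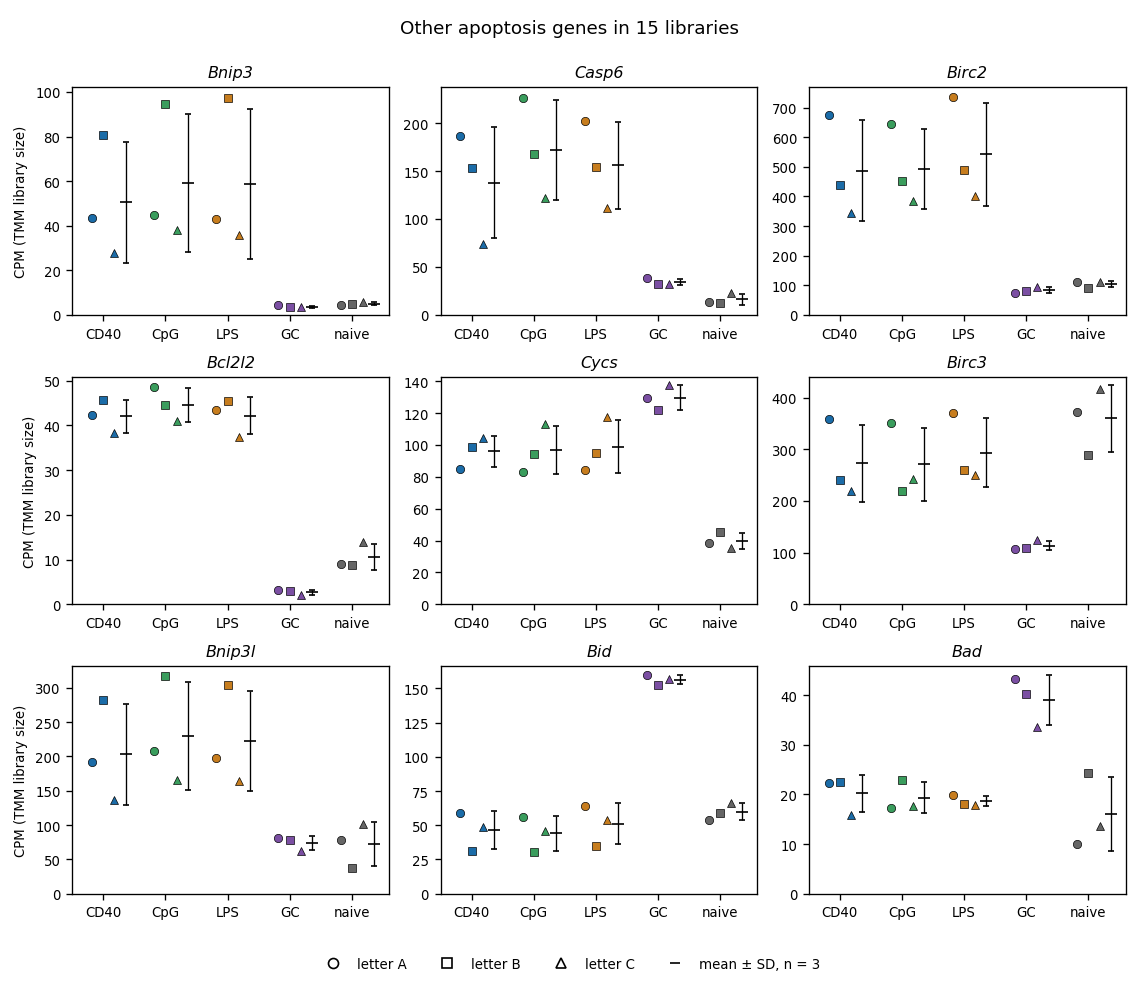
CPM of 9 further apoptosis genes, leaving out Bik and Bcl2l15 for their low levels, in the 15 libraries on linear axes, with groups, symbols and bars as for the family genes. Bid and Bad are highest in GC libraries, Birc3 is lowest there, and Bnip3, Casp6, Birc2 and Bcl2l2 are highest in activated libraries.

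The genes whose log2 CPM followed Bcl2 most closely over the 15 libraries were Il27ra, a cytokine receptor gene (Pearson r = 0.987), Cnn3, a calponin gene (0.984), and Prpf40b, a splicing factor gene (0.98). Cnn3 stood at 1.27, 2.84 and 2.77 CPM in GC libraries and at 175, 141 and 242 CPM in naive libraries, with 68.9 to 89.0 CPM in activated libraries. Those nearest to Bcl2l1 were Dctd, a dCMP deaminase gene (0.992), Lgals1, which encodes galectin-1 (0.986), and Lamp2, a lysosomal membrane gene (0.985). Dctd read 0 in naive B, as Bcl2l1 nearly did. These r are descriptions over libraries that share groups and, in culture, letters.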

How the data were processed

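RNA from 15 libraries of mouse splenic B cells was sequenced with a directional poly(A) kit. The deposited table holds raw counts per gene, made by the authors with STAR 2.7.10a and featureCounts 2.0.6 on mm10/GRCm38, per the submitters' processing notes. The annotation release, the strand setting and the treatment of multiply mapped reads are not given in the sources used here. Gene names, exon lengths and A1 coding sequences came from GENCODE M21, and promoters from RefSeq.

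Counts were tested with the edgeR 4.0.16 quasi-likelihood test (robust, TMM scaling, filterByExpr, Benjamini-Hochberg adjustment, threshold 0.05) in R 4.3.3, with 1 mean per group over 15 libraries (17144 genes) and, for letters, over the 9 activated libraries (15727 genes). The SE is the log2 fold change divided by the root of its F statistic. The test was tried on simulated data with 200 changed genes. These counts were drawn independently for each library, so the trial does not cover libraries that deviate together. Totals of 25397624 to 36272197 counts set the counting error, and floors cover that error only. Same-letter libraries of the activated groups deviated together (correlations 0.362 to 0.495), those of other group pairs did not (-0.0696 to 0.0752). Letter was therefore blocked between stimuli only. No 2 libraries agreed within sampling noise. All 10 family genes are named. Of the other lists, up to 12 genes were named by size of change among those called and at least 2-fold changed in GC against naive cells or in all 3 activated groups against naive cells. The genes likest to Bcl2 and Bcl2l1 were the 3 with the highest r each. The family genes and lists were chosen with earlier results of these data known. Alternatives were DESeq2 1.42.0 scaling and test, no low-count filter, fits on 2 groups alone, a replicate block, libraries left out and longest-transcript lengths. Some genes of the lists are not reported here.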

Additional observations from a re-analysis of the deposited data

How the results depend on the processing

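The 10 genes in the 10 comparisons other than those between stimuli, with Bcl2a1d between stimuli, make 103 gene comparisons. Of their 1205 values under alternatives, 1074 kept direction and side of the threshold, 96 lost a call, 25 gained one and 10 changed sign, none of these called. With 1 library left out at a time, the number of the 10 genes called ranged from 3 to 4 in GC against naive cells, from 8 to 10 in CD40 and from 9 to 10 in CpG and LPS against naive cells, from 6 to 8, 5 to 8 and 7 to 8 in CD40, CpG and LPS against GC cells, and stayed at 0 between stimuli. In CpG against GC cells the 8 calls became 5 without CpG B, and 5 without all activated libraries of letter B, with Bcl2l1, Bcl2a1b and Bax lost. With the replicate block in the 9 activated libraries, 1 gene was called in each pair of stimuli. With the block in all 15 libraries, whose letters do not pair the other groups, 4 genes were called in GC against naive cells, 10 in each activated group against naive cells, 9, 9 and 10 in CD40, CpG and LPS against GC cells, and 0 between stimuli. In A against C the 7 calls became 4 without the CD40-titled, the CpG-titled or the LPS-titled libraries. The cause of these changes was not tested, beyond the fewer libraries. Between stimuli, the other 9 genes in 3 pairs make 27 gene comparisons, none called in the fit reported or in an alternative, and 80 of their 405 alternative values, in 20 of the 27, changed sign. The signs that changed elsewhere were, in GC against naive cells, Mcl1 (0.026 without naive C, lowest -0.32), Bax (0.11 without naive B, lowest -0.52) and Bcl2l11 (0.18 without GC C, lowest -0.17). In A against B they were Bcl2 (0.083 without CpG and 0.0069 without LPS libraries), in A against C Bcl2a1a (-0.014 with a stimulus term and -0.20 without LPS libraries), and in B against C Bcl2l1 (-0.069 without CpG and -0.0037 without LPS libraries) and Bak1 (0.036 without LPS libraries). Low counts limit Bcl2l1 in naive cells and Bcl2 and Bcl2a1a in GC cells.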
